A study of Arabidopsis thaliana with 8 samples.

Results

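PIF3-binding sites lying between 2 genes that are transcribed away from each other are described here. Summits of the PIF3 peaks in the 4 replicate lists were joined where less than 100 bp separated them, and groups drawn from 2 or more lists were taken as sites, each placed at the mean of its summits. A site was kept if its mean summit lay in no annotated nuclear gene, if the nearest gene to the left was on the minus strand and the nearest gene to the right on the plus strand, and if both transcription start sites (TSS) were within 5 kb. The rule took 271 of 1064 sites, in 257 gaps between genes, with 514 genes beside them. The rule used the position of the called peaks and of the genes, and no motif or gene function. Enrichment entered it only through the authors' peak cutoff and the need for peaks in 2 or more lists. The folds and numbers of lists given below are therefore those of sites past that cutoff.

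The peaks came from chromatin immunoprecipitation with an antibody against the Myc epitope, followed by sequencing, in whole 2-d-old dark-grown *Arabidopsis thaliana* seedlings of the Col-0 accession. P3M seedlings carry *35S:PIF3-5xMyc* in the *pif3-3* null mutant, and WT seedlings, which carry no epitope, show what the antibody precipitates without its target. There were 4 biological replicates of each genotype, all given 3 h of white light at 21 °C and 15 min of far-red light before darkness. The transgene is driven by the viral 35S promoter and not by that of *PIF3*, which limits P3M as a model of endogenous PIF3. For each list the authors set a P3M library against its same-numbered WT library, so WT has no list of its own.

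PIF3 is a basic helix-loop-helix (bHLH) transcription factor that promotes growth in darkness and is degraded after it binds light-activated phytochrome. PIF3 binds the G-box, CACGTG, and the PBE-box, CACATG, which are both forms of the E-box, CANNTG. A gap between divergent genes can contain the promoters of both neighbors, and a bound site in it lies upstream of both annotated genes. The TSS was taken here as the start of the annotated gene, whatever its kind. Beside tRNA genes, microRNA genes and pseudogenes, that position may not be where transcription starts. The binding data alone do not show which neighbor, if either, responds to PIF3.

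The lists held 696, 2517, 526 and 3089 peaks in replicates 1 to 4, and the total reads per library are unknown. Peaks in replicates 1 to 4 were present at 121, 219, 109 and 254 of the divergent-pair sites. The median of their peaks held 90, 110, 165 and 268 P3M tags in replicates 1 to 4. The false discovery rate given by MACS was 100% for 114, 0, 109 and 97 of these peaks, and under 5% for 4, 29, 0 and 43 of them, in the same order.

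The sequences below, from the plus strand of TAIR10.1, show what the bound DNA of these gaps looks like, with each G-box and PBE-box in capitals. The first 5 carry the G-boxes of the strongest gaps that hold a transcription factor gene.
BBX29–AT5G54480 (chr5:22115911-22116111): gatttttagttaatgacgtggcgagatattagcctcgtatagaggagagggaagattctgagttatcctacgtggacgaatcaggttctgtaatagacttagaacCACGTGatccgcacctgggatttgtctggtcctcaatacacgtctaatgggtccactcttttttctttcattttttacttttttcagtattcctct
AT4G27300–BBX28 (chr4:13674933-13675133): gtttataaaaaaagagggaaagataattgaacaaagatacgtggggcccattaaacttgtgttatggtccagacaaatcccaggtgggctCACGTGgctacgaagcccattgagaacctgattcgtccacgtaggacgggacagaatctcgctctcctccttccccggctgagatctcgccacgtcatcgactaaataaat
WRKY22–AT4G01245 (chr4:526542-526742): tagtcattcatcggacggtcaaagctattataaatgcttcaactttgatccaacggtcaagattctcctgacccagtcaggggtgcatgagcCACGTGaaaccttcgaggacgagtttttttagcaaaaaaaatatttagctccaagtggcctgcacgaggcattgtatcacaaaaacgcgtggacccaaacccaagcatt
AT4G17450–HAT1 (chr4:9738098-9738298): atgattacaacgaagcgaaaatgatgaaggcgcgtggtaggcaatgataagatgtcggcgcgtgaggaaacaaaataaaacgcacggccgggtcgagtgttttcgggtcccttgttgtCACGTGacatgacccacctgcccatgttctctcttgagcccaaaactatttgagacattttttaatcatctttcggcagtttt
AT1G01250–AT1G01260 (chr1:108187-108387): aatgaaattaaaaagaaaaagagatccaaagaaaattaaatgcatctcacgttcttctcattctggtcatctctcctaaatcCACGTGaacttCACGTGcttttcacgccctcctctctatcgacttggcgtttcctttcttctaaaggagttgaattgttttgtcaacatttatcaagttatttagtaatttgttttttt

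The next set shows sites with several G-boxes, including 1 of the 8 members with 3 G-boxes and the narrowest gap. Where a gene begins within 100 bp of the summit, the stretch is cut at the gene's edge.
AT5G05965–NEDD1 (chr5:1792635-1792807): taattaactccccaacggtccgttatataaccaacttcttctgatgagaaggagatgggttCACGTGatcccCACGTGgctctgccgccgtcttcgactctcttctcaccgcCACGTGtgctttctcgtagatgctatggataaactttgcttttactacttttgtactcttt
AT2G45730–PEX11D (chr2:18839293-18839434): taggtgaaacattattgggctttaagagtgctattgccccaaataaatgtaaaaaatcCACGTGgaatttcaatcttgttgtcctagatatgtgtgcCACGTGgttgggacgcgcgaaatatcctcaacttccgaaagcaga
BGAL17–PYL3 (chr1:27462502-27462702): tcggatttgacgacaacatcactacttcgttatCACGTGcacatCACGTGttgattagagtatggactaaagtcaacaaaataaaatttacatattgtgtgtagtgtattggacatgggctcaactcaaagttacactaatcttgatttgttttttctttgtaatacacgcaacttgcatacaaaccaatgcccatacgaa
AT4G19390–MIR168a (chr4:10578175-10578375): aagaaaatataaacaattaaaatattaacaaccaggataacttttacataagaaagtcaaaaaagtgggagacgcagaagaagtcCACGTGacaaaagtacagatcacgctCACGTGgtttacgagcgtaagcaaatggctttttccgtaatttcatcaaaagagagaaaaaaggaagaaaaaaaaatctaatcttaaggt

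The third set shows members that hold the PBE-box and no G-box, and then a strong member with neither motif. CACATGTG in the *GID1B* site is the PBE-box read on both strands, and was counted as 2 boxes.
AT3G63006–GID1B (chr3:23288239-23288439): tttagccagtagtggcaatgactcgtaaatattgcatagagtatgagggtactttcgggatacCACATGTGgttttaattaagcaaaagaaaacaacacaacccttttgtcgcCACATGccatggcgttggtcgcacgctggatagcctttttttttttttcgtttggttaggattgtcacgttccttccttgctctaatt
AT4G36530–BEE2 (chr4:17243345-17243545): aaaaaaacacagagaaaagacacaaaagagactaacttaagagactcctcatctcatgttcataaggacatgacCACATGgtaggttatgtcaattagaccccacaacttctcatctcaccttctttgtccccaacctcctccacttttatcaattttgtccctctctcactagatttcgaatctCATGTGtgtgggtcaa
MIR166e–AT5G41908 (chr5:16776282-16776482): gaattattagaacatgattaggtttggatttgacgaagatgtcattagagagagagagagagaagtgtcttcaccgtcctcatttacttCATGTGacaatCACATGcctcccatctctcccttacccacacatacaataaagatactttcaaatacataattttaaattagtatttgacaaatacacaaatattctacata
AT1G23700–AT1G23710 (chr1:8384980-8385180): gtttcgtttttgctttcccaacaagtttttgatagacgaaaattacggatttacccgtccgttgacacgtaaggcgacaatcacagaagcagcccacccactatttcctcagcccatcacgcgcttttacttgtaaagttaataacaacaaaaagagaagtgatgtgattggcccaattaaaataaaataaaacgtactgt

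The strongest sites between divergent genes lay beside a pair of B-box genes. The B-box family holds zinc-finger proteins, several of which act with the light-signaling factor HY5. The site between *BBX29* and AT5G54480, which encodes a hypothetical protein, had a MACS fold enrichment (summit tags relative to local background) of 22.82, 26.96, 17.09 and 24.08 in replicates 1 to 4, or 22.7 ± 4.14 (SD, n = 4). Its summit was 472 bp from the TSS of *BBX29* and 1993 bp from that of AT5G54480, and it held 1 G-box. The site between AT4G27300, an S-locus lectin kinase gene, and *BBX28* had folds of 19.0, 25.04, 12.98 and 21.34, or 19.6 ± 5.06 (SD, n = 4), and lay 504 bp from *BBX28*. Both stood above every other member in each of the 4 lists. Replicate 3 was the lowest at both sites.

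**Figure D1:**
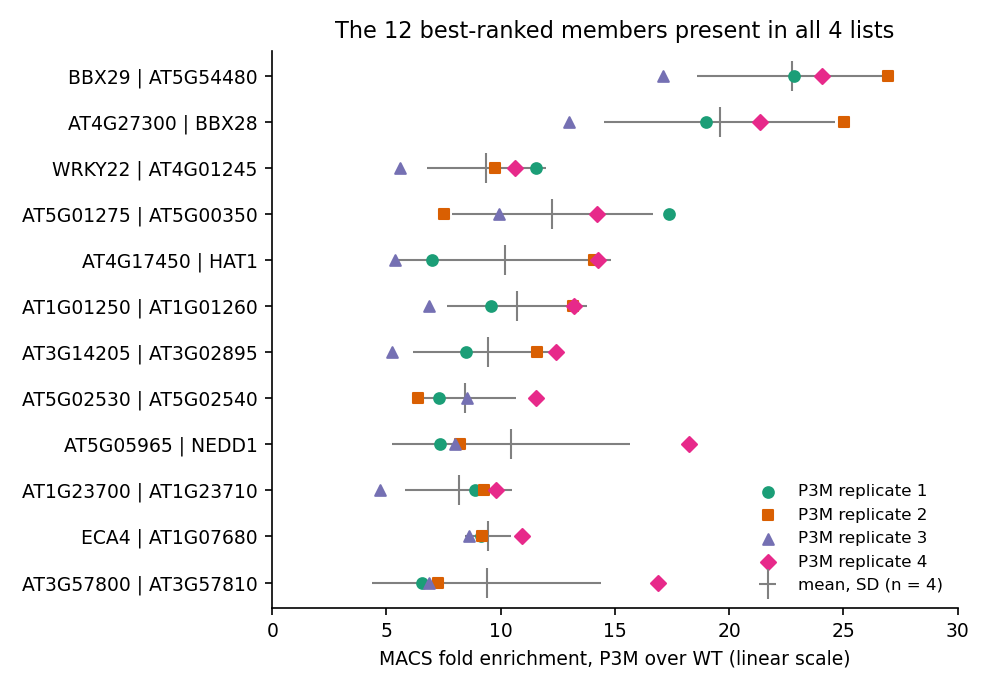
MACS fold enrichment (linear axis) in each of the 4 replicates for the 12 best-ranked divergent-pair sites among those in all 4 lists (mean rank of the MACS p-value, best at the top), with the mean and SD of the 4 values. The fold, labeled P3M over WT on the axis, is the ratio to local background of P3M peaks called against WT. The *BBX29* and *BBX28* sites sit above the rest in every replicate, and replicate 4 stands alone at the *NEDD1* and AT3G57800 sites.

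The other 10 of the 12 best-ranked members had mean folds of 8.16 to 12.2. Those beside transcription factor genes are given first. *WRKY22* encodes a WRKY factor of immunity and leaf senescence, and the site 2393 bp upstream of it and 949 bp upstream of AT4G01245 had folds of 11.54, 9.74, 5.61 and 10.62 in replicates 1 to 4. *HAT1* encodes a class II homeodomain leucine-zipper factor of the shade-avoidance family. The site 1320 bp upstream of *HAT1* and 882 bp upstream of AT4G17450 had folds of 6.99, 14.07, 5.36 and 14.26. Replicates 2 and 4 of the *HAT1* site were well above replicates 1 and 3, and the mean was 10.2 ± 4.66 (SD, n = 4). The site between AT1G01250, a gene of the Integrase-type DNA-binding superfamily, and AT1G01260, a bHLH gene, had folds of 9.56, 13.18, 6.87 and 13.19 and held 2 G-boxes that begin 11 bp apart. Regulator genes were annotated on both sides of this gap. AT3G57800, a further bHLH gene, shared its gap with the cysteine proteinase gene AT3G57810, and folds there were 6.55, 7.27, 6.86 and 16.9.

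The remaining gaps of the 12 held no annotated transcription factor gene. The site between the non-coding genes AT5G01275 and AT5G00350 had folds of 17.37, 7.5, 9.91 and 14.21, and 3 of the 271 members had no protein-coding neighbor. The site between AT3G14205, a phosphoinositide phosphatase gene, and the non-coding gene AT3G02895 had 8.48, 11.6, 5.26 and 12.4. At *ECA4*, which encodes a calcium-transporting ATPase of the endomembranes, the folds of 9.13, 9.17, 8.61 and 10.91 were the most even of the 12, with an SD of 1.00. The site 73 bp upstream of AT5G05965, annotated as a cell wall RBR3-like protein, and 2587 bp upstream of *NEDD1*, a gene of microtubule nucleation, held 3 G-boxes and had folds of 7.35, 8.21, 8.01 and 18.22. The site between AT5G02530, an RNA-binding protein gene, and AT5G02540 held 1 PBE-box and no G-box, with folds of 7.32, 6.39, 8.51 and 11.55. The site 108 bp upstream of AT1G23710 and 2790 bp upstream of AT1G23700 held neither motif, with folds of 8.86, 9.26, 4.71 and 9.8. It was 1 of 3 members in all 4 lists with neither motif, beside the *BBX23*–*ATHSP22.0* and AT1G17495–AT1G17500 sites.

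Sites between divergent genes lay at unequal distances from their 2 TSS, as most points in a gap do. The nearer TSS was at a median of 635 bp (quartiles 172.5 and 1187 bp) and the farther at a median of 1975 bp (quartiles 1166 and 2842.5 bp). Only 55 members (20.3%) had both TSS within 1000 bp, 139 (51.3%) had 1 TSS within that distance, and 77 (28.4%) had neither. The farther TSS was at least 3 times as far as the nearer at 134 members, and less than 1.5 times as far at 63. A farther TSS over 3 times as far means that the nearer lies within less than 25% of the gap, the cut tested below. The nearer gene was on the minus strand at 140 members and on the plus strand at 131. In the gaps of at most 5 kb, where the distance limit takes every position, the nearer TSS lay within less than 25% of the gap at 124 of 235 members (52.8%, 95% Clopper-Pearson interval 46.2 to 59.3%). A summit placed evenly along its gap would give 50%, and an exact two-sided binomial test found no departure from it (p = 0.434). 

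**Figure D2:**
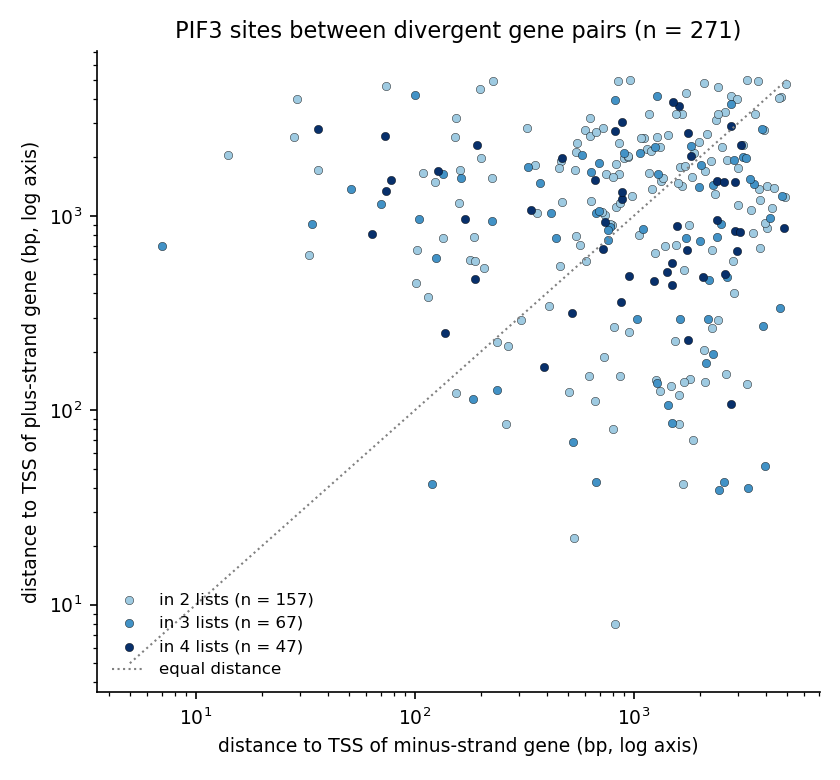
Distance from the mean summit to the TSS of the minus-strand gene and to that of the plus-strand gene, both in bp on log axes, for the 271 members, each a point shaded by the number of lists it is in. Points lie on both sides of the line of equal distance, and 55 have both TSS within 1000 bp.

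The gaps that held a member were wide. The distance between their TSS had a median of 2499 bp over 257 gaps, against 1027 bp over the 7901 divergent gaps with DNA that the rule could reach. A site was thus present in 3.25% of those gaps. A wider gap offers more positions for a site, and whether the difference in width goes beyond this was not tested. Per megabase of reachable divergent DNA there were 24.2 sites. Counted over whole gaps, without the 5 kb limit, there were 23.3 sites per megabase in divergent gaps, 16.3 in tandem gaps (between genes on the same strand) and 11.6 in convergent gaps. These densities are a description of the places of the sites, since how much of each kind of gap could be read uniquely was not tested. The narrowest gap with a site, 162 bp between the TSS of AT2G45730, annotated as an initiation factor 3 gamma subunit, and *PEX11D*, a gene of peroxisome proliferation, held 2 G-boxes and had folds of 5.32, 4.88 and 3.72 in replicates 1, 2 and 4. The next, between AT4G21310 and *HSA32*, a heat-stress gene, spanned 277 bp and held neither motif, with folds of 4.19 and 3.87 in replicates 2 and 4. The widest were the 9718 bp between the non-coding gene AT1G05003 and *RAV1*, a transcription factor gene, and the 8784 bp between AT1G33440 and AT1G33450, and the summit was over 4 kb from every TSS in both.

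At the 5 kb limit, the members nearest to it had their farther TSS at 4992 bp (*ESE3*–AT5G25195) and at 4988 bp (*TIR1*–AT3G62990, where *TIR1*, the auxin receptor gene, was the nearer at 965 bp). The sites just outside had it at 5151 bp (*JAG*–AT1G68490) and 5152 bp (*PUB12*–*XBAT31*). In all, 42 sites between divergent genes were left out by the limit.

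In 13 gaps PIF3 bound at more than 1 site, with 2 sites in 12 gaps and 3 in 1. The gap with 3 lies between AT3G53990 and AT3G54000, a TIP41-like gene, and its summits were 1865 and 1129 bp apart. The middle summit there had the highest folds, 6.5, 6.19 and 9.1 in replicates 2, 3 and 4, and held neither motif. In the *DWF4* gap, the sites were 3703 and 4604 bp upstream of *DWF4*, which encodes a rate-limiting enzyme of brassinosteroid synthesis, and were found in replicates 2 and 4 only. The other neighbor, the tRNA gene AT3G50665, was 4932 and 4031 bp from these sites, and so was the nearer gene at the second. Folds were 5.33 and 8.8 at the site nearer to *DWF4*, with 1 G-box and 2 PBE-boxes. They were 4.58 and 12.28 at the site farther from *DWF4*, with 2 G-boxes. In the *GID1B* gap, the site 904 bp from this gibberellin receptor gene held 3 PBE-boxes and that at 136 bp held 1, and neither held a G-box. Folds at the site 904 bp away were 4.28, 5.27 and 4.54 in replicates 1, 2 and 4, and those at 136 bp were 5.58 and 6.58 in replicates 2 and 4. The second site in the *WRKY22* gap, 1198 bp from *WRKY22*, was found in replicates 2 and 4 only, with folds of 4.69 and 5.12, and held neither motif.

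A gap with sites at both ends was that of *XTH33* and *PUB18*. *XTH33* encodes a xyloglucan-modifying enzyme of the cell wall, and the site 600 bp upstream of it had folds of 3.25 and 4.52 in replicates 3 and 4 and neither motif. *PUB18* encodes a U-box ubiquitin ligase, and the site 40 bp upstream of it held 2 G-boxes and 1 PBE-box, with folds of 5.33, 6.43 and 4.71 in replicates 1, 2 and 4. Its close homolog *PUB19* also had a divergent-pair site, 86 bp from its TSS, with 3 G-boxes and folds of 4.41, 3.99 and 5.41 in the same replicates. In the *ZIP4*–*GolS2* gap the sites were 543 bp from *ZIP4* and 468 bp from *GolS2*, a galactinol synthase gene. In the AT5G19130–*AILP1* gap they were 1428 bp from AT5G19130 and 52 bp from *AILP1*, and in the AT1G20890–*ESC* gap 227 bp from AT1G20890 and 2000 bp from *ESC*, an AT-hook gene. The remaining gaps with 2 sites were those of *PAO4*, *MPK15*, AT1G75590, *CKI1* and *OBP4*.

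G-boxes and PBE-boxes were common in the divergent-pair sites, and no difference from the 375 sites between tandem genes was detected. Of the members, 140 held a G-box within 100 bp of the mean summit (51.7%, 95% Clopper-Pearson interval 45.5 to 57.7%), against 193 tandem-pair sites (51.5%, 46.3 to 56.6%). The difference was 0.19 percentage points (95% Newcombe interval -7.58 to 7.95, Fisher's exact test, p = 1). The G-box share over all 1064 sites was 49.9%. A PBE-box was held by 92 members (33.9%, 28.3 to 39.9%), against 141 tandem-pair sites (37.6%, 32.7 to 42.7%), a difference of -3.65 points (interval -11.0 to 3.87, Fisher's exact p = 0.362, adjusted p = 1 over 13 motifs by Benjamini-Hochberg). Over all sites the PBE-box share was 35.3%. These intervals leave room for a difference of several points in either direction. Sites in 1 gap share their neighbors, and the test treats them as separate.

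None of the other 11 motifs differed between divergent-pair and tandem-pair sites at an adjusted p of 0.05. The smallest unadjusted p was 0.262, for ACGT outside a G-box, with 57.9% of divergent-pair and 53.3% of tandem-pair sites, and 0 of the 13 motifs had an unadjusted p under 0.05. TGACGT, the core of the as-1 element, was in 19.2% against 16.0%, and TGGGCC, the site II element, in 18.5% against 18.1%. TATAAA was in 24.4% against 22.4%. All motifs were read on both strands, and CANNTG counted as another E-box only where it was neither a G-box nor a PBE-box. ACGT was counted only where it was not the centre of a G-box, so that it also lies inside TGACGT.

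Relative to the DNA of the same kind of gap, the members were rich in some motifs and poor in others. A G-box was in 51.7% of members, against 3.15% of 51867 consecutive windows of the length of a site in the reachable divergent gaps, a ratio of 16.4. A PBE-box was in 33.9% of members and 9.83% of windows, a ratio of 3.45. TGACGT was in 19.2% of members and 4.82% of windows, TGGGCC in 18.5% of members and 4.93% of windows, and CCGAC, the core of the drought response element, in 17.7% of members and 8.27% of windows. TATAAA was in 24.4% of members and 42.0% of windows. The windows include the member sites, and base composition was not matched, so these ratios are a description. The median G and C content of the members was 38.3%.

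**Figure D3:**
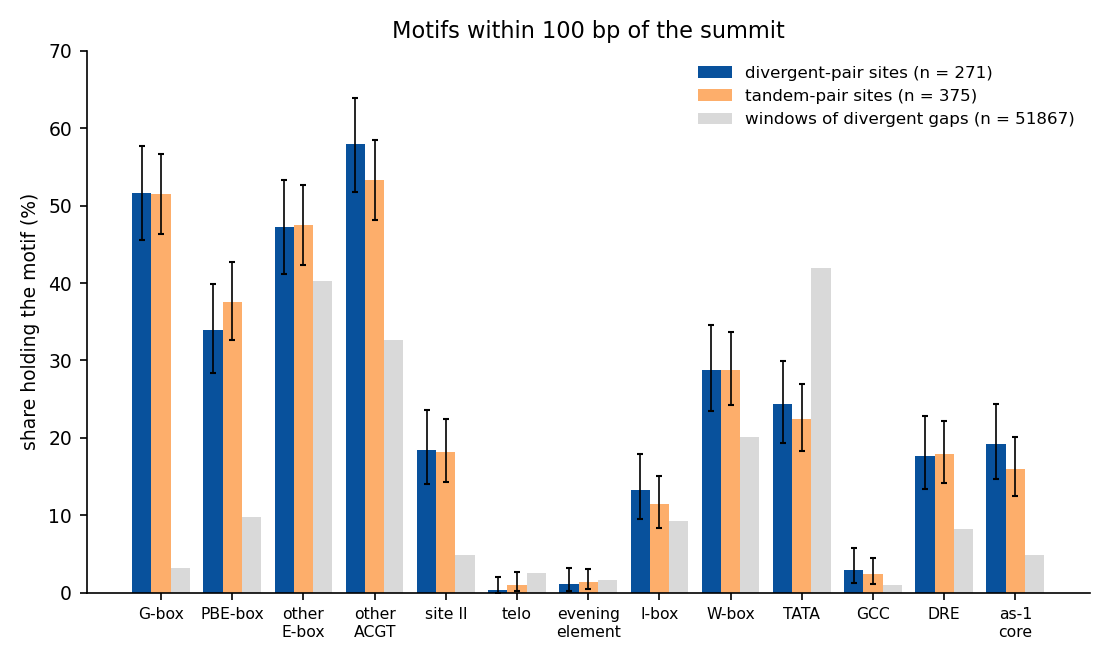
Share (%) holding each of the 13 motifs on either strand in the 271 divergent-pair sites, in the 375 tandem-pair sites (bars from 0, with 95% Clopper-Pearson intervals) and in 51867 windows of the same length that tile the divergent gaps. The divergent and tandem bars are level for the G-box at 51.7% and 51.5%, while 3.15% of windows hold it. The named motifs are site II (TGGGCC), telo (AAACCCTA), the evening element (AAAATATCT), the I-box (GATAAG), the W-box (TTGACC or TTGACT), the TATA box (TATAAA), the GCC box (GCCGCC), the drought response element (CCGAC) and the as-1 core (TGACGT).

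Within the members, G-boxes were close to the summit. The nearest G-box had its centre at a median of 17.5 bp from the mean summit and within 25 bp at 93 of 140 members, and the nearest PBE-box at a median of 17 bp and within 25 bp at 59 of 92. A single G-box was held by 98 members, 2 by 34 and 3 by 8. Of the 50 pairs of neighboring G-boxes within a member, 6 began 11 bp apart, which was also the shortest spacing, and the median spacing was 35.5 bp. In tandem-pair sites 9 of 89 such pairs began 11 bp apart, and the shortest spacing was 7 bp. The 11-bp spacing can be seen above in the AT1G01250, *NEDD1* and *PYL3* sites. Counting the base on either side, the commonest forms of the 190 G-boxes were ACACGTGG or its reverse with 35 (18.4%), CCACGTGA or its reverse with 31 (16.3%) and CCACGTGG with 29 (15.3%), against 43 (15.2%), 46 (16.3%) and 38 (13.5%) of 282 G-boxes in tandem-pair sites.

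The 8 members with 3 G-boxes had mean folds of 3.52 to 10.4. Among them, besides *NEDD1* and *PUB19*, were those beside *ESC*, AT2G25460, *ZF2*, *BEH2* and AT5G60670. *BEH2* encodes a homolog of the brassinosteroid factors BES1 and BZR1, and its site, 134 bp from the TSS, had folds of 5.33, 3.22 and 7.22 in replicates 2, 3 and 4. *ZF2* encodes a zinc-finger protein, and the site 1033 bp from it and 293 bp from *BUB3.1*, a spindle checkpoint gene, had 5.15, 4.13 and 4.42 in replicates 1, 2 and 4. At *ESC* the folds were 3.68, 3.44 and 3.43 in replicates 1, 2 and 4, near the low end of the range of 2.26 to 26.96 over the 703 member peaks.

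The PBE-box, unlike the G-box, has a direction, and a divergent gap has a gene at each end. Of the 115 PBE-boxes in members, 66 read CACATG on the strand of the nearer gene and 49 on that of the farther (57.4%, 95% Clopper-Pearson interval 47.8 to 66.6%), which an exact two-sided binomial test did not tell from 50% (p = 0.135). Of the 115 boxes, 8 lie in the 4 members with CACATGTG and count once in each direction. The test and interval take the boxes as independent, although 17 members held 2 boxes and 3 held 3. The 2 PBE-boxes of the *MIR166e* site lie on opposite strands, and those of *BEE2* do too.

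Sites with a G-box were found in more lists than sites without. Of the 47 members in all 4 lists, 78.7% held a G-box, against 59.7% of the 67 in 3 lists and 40.1% of the 157 in 2 lists. For the PBE-box the shares were 29.8%, 35.8% and 34.4%. Of the 111 members with a G-box and no PBE-box, 30 were in all 4 lists (27.0%), as were 7 of the 29 with both (24.1%), 7 of the 63 with only a PBE-box (11.1%) and 3 of the 68 with neither (4.41%). The median fold of members with a G-box was 5.83, 5.18, 5.02 and 6.55 in replicates 1 to 4, against 4.88, 4.65, 4.07 and 6.25 in members with neither motif. The G-box members were higher than those with neither motif in each of the 4 replicates, and the quartiles of both groups overlapped in each. Members with a PBE-box and no G-box had medians of 4.835, 4.7, 4.23 and 5.72. These were below the members with neither motif in replicates 1 and 4, and above them in replicates 2 and 3. This split of the members is a description, with no test. The 68 members with neither motif included 34 with another E-box and 43 with ACGT, and 15 had none of these. Both are common in any DNA of these gaps. Another E-box was in 40.2% and ACGT outside a G-box in 32.6% of the windows of the reachable divergent gaps.

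**Figure D4:**
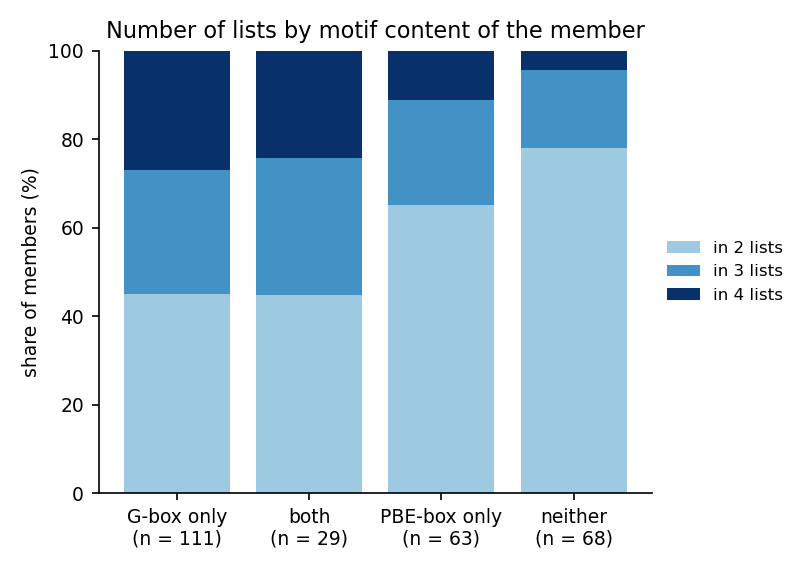
Share (%) of members found in 2, 3 or 4 of the 4 replicate lists, for members with a G-box only (n = 111), both motifs (n = 29), a PBE-box only (n = 63) or neither (n = 68). The share in all 4 lists is 27.0% with only a G-box and 4.41% with neither.

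The share of sites present in every replicate was close in divergent-pair and tandem-pair sites. Of the 271 members, 47 were in all 4 lists (17.3%, 95% Clopper-Pearson interval 13.0 to 22.4%), against 66 of 375 tandem-pair sites (17.6%, 13.9 to 21.8%). The difference was -0.26 percentage points (95% Newcombe interval -6.07 to 5.82, Fisher's exact test, p = 1). Over all sites the share was 16.4%. A total of 92 members came from replicates 2 and 4 only, which had the longest lists. At 6 members, a list counted as lacking the site held a peak that covered it but whose own summit was too far away to be joined.

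The median fold enrichment was slightly lower at divergent-pair than at tandem-pair sites in every replicate. Median folds were 5.41, 4.91, 4.35 and 6.16 at divergent-pair sites in replicates 1 to 4, against 5.67, 5.13, 4.74 and 6.50 at tandem-pair sites. The mean difference was -0.30 ± 0.08 (SD, n = 4 replicates), and in an exact two-sided sign-flip permutation test 2 of the 16 sign patterns were as far from 0, which is the fewest possible and cannot reach a p of 0.05 with 4 replicates. The 4 lists measured many of the same sites, so the 4 differences are not independent of each other. The SD and the test cover the spread between replicates and not that between sites. The quartiles of both kinds of site overlapped in each list and did not all follow the medians. They were 4.82 and 8.06 for divergent-pair and 5.15 and 8.33 for tandem-pair sites in replicate 4, while in replicate 1 both were higher for divergent-pair sites, at 4.67 and 6.86, against 4.56 and 6.6 for tandem-pair sites. In replicate 3 the lower quartile was 3.78 for divergent-pair and 3.74 for tandem-pair sites. Between lists, the folds of the members went together to differing degrees. Spearman's rho over the members found in both lists was 0.75 for replicates 3 and 4 (109 members) and 0.41 for replicates 1 and 3 (51 members). The points share libraries and each list holds only called peaks, so these are descriptions.

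**Figure D5:**
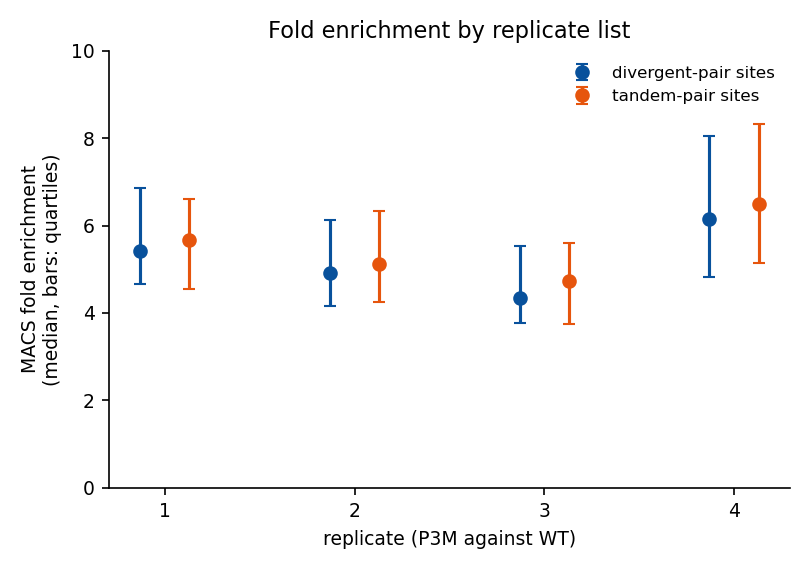
Median MACS fold enrichment (points, linear axis from 0) with quartiles (bars) of the peaks at divergent-pair and tandem-pair sites in each of the 4 replicate lists. The divergent-pair median is the lower in each list, with differences of -0.22 to -0.39, and the quartile ranges overlap.

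The share with a G-box was also set against the distance to the nearer TSS. Of the 120 members whose nearer TSS was within 500 bp, 72 held a G-box (60.0%, 95% Clopper-Pearson interval 50.7 to 68.8%), against 68 of the 151 others (45.0%, 36.9 to 53.3%), and no test of this split was made. The PBE-box shares were 34.2% and 33.8%. Median folds within 500 bp were 5.41, 4.69, 4.21 and 5.96 in replicates 1 to 4, against 5.31, 5.05, 4.55 and 6.26 farther away. The members nearest to a TSS, 7 bp from the non-coding gene AT1G05473 in the gap it shares with *JAZ1*, a repressor gene of jasmonate signaling, and 8 bp from AT4G09155 in the gap of *RHA3B*, held no G-box.

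The genes beside the members covered many functions. Of 192 genes in 14 lists of light, hormone, clock, growth and pigment genes, 18 lay beside a member, while 1.36% of all 37899 nuclear genes did. The lists were drawn up with earlier results of these data known, and hold genes described as PIF3-bound, so that this count is no independent evidence. Of the light genes, *PHYB*, the phytochrome whose activation leads to PIF3 degradation, had a site 134 bp from its TSS with 2 G-boxes. Its folds were 9.35 in replicate 3 and 14.43 in replicate 4, and the lists of replicates 1 and 2 held 0 peaks with a summit within 3 kb of it. *HFR1*, an atypical bHLH protein that inhibits PIFs, had a site at 1422 bp with folds of 5.59, 4.62, 5.02 and 7.08, and the gene on the other side, AT1G02350, was nearer at 516 bp. *PHOT1*, a blue-light receptor gene, had a site at 1516 bp with 2 PBE-boxes and folds of 3.83 and 4.64 in replicates 2 and 4. The pseudogene AT3G45775 on the other side was nearer, at 1334 bp.

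In the B-box list 3 of 15 genes lay beside a member, the third being *BBX23*. Its site was 137 bp from *BBX23* and 251 bp from *ATHSP22.0*, a small heat-shock protein gene, and held neither motif. Folds there were 5.2, 4.92, 4.48 and 13.68 in replicates 1 to 4, with replicate 4 far above the rest. The counts in the light-signaling bHLH, photoreceptor and homeodomain leucine-zipper lists were 1 of 13, 2 of 10 and 1 of 11.

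Among hormone genes, 3 of 14 in the brassinosteroid list lay beside a member. *BRI1*, the brassinosteroid receptor gene, had a site 2887 bp away with folds of 5.96, 5.01, 5.64 and 5.99, or 5.65 ± 0.46 (SD, n = 4), the smallest SD of the 47 members in all 4 lists. *BEE2*, a bHLH gene of the brassinosteroid response, had a site at 138 bp with 2 PBE-boxes and folds of 4.24, 4.01 and 6.0 in replicates 1, 3 and 4. Of the abscisic acid list, 2 of 13 genes were found. *ABF3*, a bZIP factor, had a site at 667 bp with folds of 6.25, 7.52, 4.01 and 6.74. *PYL3*, a receptor gene, shared a site with *BGAL17*, 381 bp from *PYL3* and 115 bp from *BGAL17*, with folds of 3.55 and 3.71 in replicates 2 and 4. The gibberellin list had 1 of 16 (*GID1B*) and the Aux/IAA list 1 of 29 (*IAA11*, at 551 bp, with folds of 4.14 and 4.34 in replicates 2 and 4). The lists of auxin biosynthesis and transport (18 genes), cytokinin (11), circadian clock (11) and reference genes (7) had 0.

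Of 14 cell wall genes, *XTH33* and *XTH15* lay beside a member, and the *XTH15* site, 1766 bp away, had folds of 4.43, 6.73, 6.82 and 8.67. Of 10 chlorophyll, carotenoid and photosystem genes, *PSBQ-2* and *PSY* did. *PSBQ-2* encodes a subunit of the oxygen-evolving complex, and the site 127 bp from it held 2 G-boxes, with folds of 7.1, 4.69, 5.68 and 7.4. *PSY* encodes phytoene synthase, the first enzyme of carotenoid synthesis, and its site at 1277 bp had folds of 3.92 and 4.37 in replicates 2 and 4.

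Regulator genes, found by keywords for transcription factor families in the annotation, were 39 of the 440 protein-coding genes beside members (8.86%, 95% Clopper-Pearson interval 6.38 to 11.9%), against 773 of 11755 in all reachable divergent pairs (6.58%, 6.13 to 7.04%). The intervals overlap. By these keywords, 219 of the 257 gaps had no regulator gene, 37 had 1 and 1 had 2. The keywords miss some wordings, such as that of AT2G33720, an AP2/B3-like transcriptional factor gene, whose gap also holds the Integrase-type DNA-binding gene AT2G33710. Whether they also take in genes that are not transcription factors was not checked, so the counts are approximate.

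Both neighbors were protein-coding at 197 members, 1 was at 71 and neither at 3. Counted at each member, so that a gene beside 2 members counts at both, the other neighbors were a long non-coding RNA gene 40 times, a pseudogene 16 times, a tRNA gene 9 times, a microRNA gene 3 times and another RNA gene 9 times. With each gene counted once, 440 of the 514 genes beside members were protein-coding. The 7901 reachable divergent pairs held 11755 protein-coding genes. The other kinds of gene were not counted in those pairs, so their numbers at members are a description and no sign of a trait of the members. At 29 of the 71 members with 1 protein-coding neighbor the other gene was the nearer. The microRNA genes were *MIR168a*, *MIR166e* and *MIR404*, and these were picked after their values were seen. Distances to them, as to every gene here, run to the edge of the annotated gene, which may not be where transcription starts. *MIR168a*, whose product targets the Argonaute gene *AGO1*, had a site at 360 bp with 2 G-boxes and folds of 4.18, 7.25, 5.22 and 11.73. *MIR166e*, of the family that targets class III homeodomain leucine-zipper genes, had a site at 720 bp with folds of 6.97, 5.01, 6.05 and 15.25 and no G-box.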

How the data were processed

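The 4 deposited peak lists, 1 for each pair of P3M and WT libraries (8 libraries in all, 36-nt single-end reads), were used. The submitters' processing notes name CASAVA 1.7.0, Bowtie 0.12.7 (alignment to TAIR9) and MACS 1.4.0rc2 (peak calling, at a p-value of 1e-05). The count of tags per peak, the fold enrichment (ratio to local background), the score (-10 times the log10 of the p-value) and the percent false discovery rate were deposited by the authors and used unchanged. For replicates 1 and 2 the authors joined 2 sequencing runs. Library totals were not used here, so only peaks past the authors' cutoff could be compared.

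Sites, genes and sequence were taken from TAIR10.1 (RefSeq, 37899 nuclear genes), while the files use TAIR9. The check took the 1417 peaks for which the authors tabulated a G-box distance of at most 3 kb on TAIR9. Of these, 1416 had a G-box at that distance within 2 bp in TAIR10.1. All 6828 peaks lay inside the chromosomes. The annotations differ, and by how much was not measured. Motifs had to lie wholly within 100 bp of the mean summit on either side. Shares were compared by Fisher's exact test, medians of the 4 lists by an exact sign-flip test, and directions by exact binomial tests. Intervals cover counting error only. Alternatives changed the joining distance, the lists or p required, the genes, the TSS limit, the motif window or the tandem sites compared, or left out each list. Site building and motif search were checked on simulated peaks. The simulated sites were far apart and their summits close together, so neighboring sites and scattered summits, which the real lists hold, were not tried.

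Genes are named beside the 12 best-ranked members in all 4 lists, beside members next to a listed gene, in gaps with several members, in the 2 narrowest and 2 widest gaps, at the 5 kb limit and at members with the most G-boxes, of which 1 is not reported here. *JAZ1*, *RHA3B*, the AT1G17495 and AT2G33710 sites and the microRNA genes fall outside it and were picked with their values in view. The members, lists and tests were chosen with earlier results of these data known. The gene symbols of 191 of the 192 listed genes matched the annotation. Calculations used Python 3.11.15, numpy 2.4.6, scipy 1.17.1, pandas 2.3.3 and statsmodels 0.14.6, and figures matplotlib 3.10.9.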

Additional observations from a re-analysis of the deposited data

Results flagged for a closer look

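In each group of 4 replicate values, the value farthest from the others was compared with Dixon's 95% critical value, which chance passes in about 1 group of 20. Of 51 groups, 47 of them the folds of the members found in all 4 lists, 7 passed. Replicate 4 was far above the other 3 replicates at 6 members: 18.54 at *LSH6*–AT1G07100, 14.21 at *SYP111*–*ACHT4*, 13.57 at AT3G25727–*EDF3*, 16.9 at AT3G57800–AT3G57810, 13.68 at *BBX23*–*ATHSP22.0* and 18.22 at AT5G05965–*NEDD1*. *EDF3* encodes an ethylene response DNA-binding factor and *ACHT4* an atypical thioredoxin. Replicate 3 was far below the others, at 3.91, at AT1G02660–AT1G02670. The median folds, tags and lengths of the member peaks and the fold difference from tandem-pair sites did not pass. Replicate 4 also had the most peaks and the most tags per peak, and the part of this in the high values was not tested.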

How the results depend on the processing

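The number of member sites, 271, fell to 114 when 3 lists were required and to 102 with peaks at a p of 1e-10 or lower, and was 131 to 242 when a replicate was left out (131 without replicate 4, 162 without replicate 2). It was 211 to 280 under the other settings. No test between divergent-pair and tandem-pair sites, of PBE-box direction or of position in the gap passed 0.05 under any setting run. The G-box difference turned to -0.46 points with summits joined within 200 bp, was 4.63 points with peaks at 1e-10, and was 0.17 to 3.77 points when a replicate was left out. The difference in the share of sites in all lists, near 0, turned to 0.0022 points with joining within 50 bp, 0.49 with 3 lists required, 0.81 with protein-coding genes only and 1.83 with the 3 kb TSS limit, and was -3.83 to 1.91 when a replicate was left out. The share of members near a TSS relative to the gap turned to 49.5% with the 3 kb limit. The PBE-box difference stayed negative under all 12 settings, at -9.22 points with peaks at 1e-10, -6.17 with 3 lists required, -6.32 with the 3 kb limit and -7.11 to -3.20 when a replicate was left out (-7.11 without replicate 2). The fold difference stayed negative under all 11, and was -0.19 with peaks at 1e-10 and -0.35 to -0.21 when a replicate was left out. With peaks at 1e-10, and without replicate 2 (-0.21), the divergent-pair median was no longer the lower in every list. The comparison with tandem-pair sites whose neighboring gene ends both lie within 5 kb was added after the data were seen. No paired analysis was possible because WT libraries have no values of their own in the peak lists, and each P3M library was already set against its same-numbered WT library when the peaks were called.

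The lists hold called peaks only, so how far below the cutoff a member lay in a list that lacks it is unknown. Library depth is unknown, replicates 1 and 3 have short lists with false discovery rates near 100%, and the sign-flip test cannot reach a p of 0.05 with 4 replicates.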
